A study of Homo sapiens with 6 samples.

Results

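The expression profile described here is that of unexposed U-87 MG cells, an established human glioblastoma line grown as an adherent culture. It rests on the 3 arrays whose titles call them unexposed, of 6 arrays in the series, and the 3 arrays of exposed cells were not used. The members were the 14884 genes with at least 1 probe set that named them alone. Where a gene had several such probe sets the brightest on these 3 arrays stood for it. The unexposed dishes were kept in a culture box placed outside the shielded chamber of the experiment. They were moved there 24 h after seeding and stayed for 54 h, in 100-mm dishes with 10% fetal bovine serum, at 37 °C and 5% CO2. No transgene, drug or allele was named for this group. The labels call the 3 samples independent biological replicates, and they are numbered 1 to 3 below. All of them came from 1 cell line, so the spread between them is that of repeated cultures together with sample and array handling.

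Each level is a log2 value, so a step of 1 is a doubling of signal. Probe sets differ in how strongly they bind their target and how brightly they report it. An order of levels across genes is therefore coarse, and a step between genes is a step in signal rather than in molecules per cell. The data hold no detection calls, so a dim gene is called dim and not absent. The number of arrays limits the precision. In a bulk sample, fewer cells that express a gene and less RNA per cell cannot be told apart. For scale, the genes ran from 1.14 to 12.75 with a median of 5.27. The top 10% began at 8.49 and the bottom 10% ended at 2.68. A list drawn at random from all genes would have 50% of its members above that median and 10% in the top 10%, by construction. Of the protein-coding genes, 58.1% lay above that median and 12.2% in the top 10%. These shares are the nearer reference for a list of protein-coding genes. Levels of single genes below are means ± SD with n = 3 unless the 3 values are given, in the order of replicates 1, 2 and 3.

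Glioblastomas are malignant brain tumours with features of glial cells. Their cells are known to take up states named proneural, classical and mesenchymal, of which the mesenchymal state shares genes with connective tissue and wound repair. Normal astrocytes carry the filament protein GFAP, while vimentin filaments, fibronectin and tenascin are typical of mesenchymal cells and of invasive glioma.

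The best-known astrocyte markers were dim in these cells, while several mesenchymal and matrix genes were among the brightest. GFAP, the astrocyte filament gene, had values of 4.93, 4.86 and 4.79. These lie below the median of all genes on every array. AQP4, the water channel of astrocyte end feet, was among the dimmest astrocyte genes at 2.89 ± 0.045, and S100B, a calcium-binding protein of glia, was at 3.68 ± 0.26. FN1, which encodes fibronectin, had values of 12.02, 12.17 and 12.13 and ranked 10th of all genes. TNC, which encodes the matrix protein tenascin-C, had values of 11.78, 11.70 and 11.89. VIM, which encodes vimentin, stood at 10.54 ± 0.041 and ranked 156 by its brightest probe set, with dimmer probe sets at 9.74 and 9.76. The 3 replicates lay close together for each of these genes. They were named as bright or dim examples, so the distance between them is not a separate result. GFAP, AQP4 and S100B were thus dim here, although 5 of the 13 measured astrocyte genes lay above the median of all genes and 3 of them, SOX9, NFIB and CST3, in the top 10%. The cells are called by their line's name below.

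The promoters of a bright and a dim pair of genes are shown for CpG density, which rose with level across the genes. Each is the 250 bases before the first listed start of the gene, read 5′ to 3′ on the gene's strand from RefSeq (GRCh38.p14), with every CpG pair in capitals. FN1 lies on the minus strand at chr2:215436069-215436318, and CD68 on the plus strand at chr17:7579388-7579637. Both genes ranked in the top 10. SOX2, on the plus strand at chr3:181711675-181711924, and ALB, on the plus strand at chr4:73404037-73404286, were dim genes at 3.57 and 2.75. The printed stretch held 32 CpG pairs for FN1, 1 for CD68, 20 for SOX2 and 3 for ALB. Within both the bright and the dim pair, 1 promoter was therefore dense in CpG and the other was not.
FN1: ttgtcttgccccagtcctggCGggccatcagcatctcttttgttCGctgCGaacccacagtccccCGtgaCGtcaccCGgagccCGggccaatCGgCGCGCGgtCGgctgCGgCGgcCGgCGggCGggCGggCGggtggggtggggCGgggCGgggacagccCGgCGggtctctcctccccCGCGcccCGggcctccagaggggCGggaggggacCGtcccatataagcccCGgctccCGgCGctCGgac
CD68: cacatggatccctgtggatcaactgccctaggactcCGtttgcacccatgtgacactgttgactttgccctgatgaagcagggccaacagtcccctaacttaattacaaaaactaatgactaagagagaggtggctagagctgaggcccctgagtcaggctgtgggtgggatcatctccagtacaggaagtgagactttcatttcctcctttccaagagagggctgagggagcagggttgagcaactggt
SOX2: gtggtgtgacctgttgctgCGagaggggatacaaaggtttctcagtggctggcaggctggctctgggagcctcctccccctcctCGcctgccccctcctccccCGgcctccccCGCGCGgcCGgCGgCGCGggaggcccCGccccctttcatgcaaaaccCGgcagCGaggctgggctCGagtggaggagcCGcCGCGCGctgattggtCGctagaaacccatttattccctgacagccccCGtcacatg
ALB: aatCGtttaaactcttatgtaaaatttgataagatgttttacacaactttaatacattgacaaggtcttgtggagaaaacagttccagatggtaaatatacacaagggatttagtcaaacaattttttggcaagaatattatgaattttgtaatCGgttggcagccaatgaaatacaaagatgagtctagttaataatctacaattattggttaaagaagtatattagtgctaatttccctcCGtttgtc

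The brightest named gene was TFPI2, with values of 12.78, 12.70 and 12.76. It encodes tissue factor pathway inhibitor 2, a secreted protease inhibitor of the matrix. RMRP, the RNA of the RNase MRP ribonucleoprotein, followed at 12.57 ± 0.11. EEF2, the elongation factor that moves the ribosome along mRNA, stood at 12.54 ± 0.019 and TMSB10, an actin-binding thymosin, at 12.44 ± 0.035. HMGA1, an architectural chromatin protein, stood at 12.24 ± 0.017, but it has 2 probe sets, and the dimmer was at 10.26. The 30 brightest named genes lay between 11.70 and 12.75, and 26 of them were protein coding.

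These 30 genes were of many kinds, most with 1 or 2 genes. RPL41, RPS27, RPS15 and RPS28 encode proteins of the cytosolic ribosome, with means of 12.04, 11.90, 11.84 and 11.81. RPL41 has 5 probe sets, and the dimmer ones lay between 5.61 and 9.49. CD68 and CTSD belong to the lysosome. CD68, a glycosylated lysosomal membrane protein best known as a macrophage marker, had values of 12.24, 12.22 and 12.25. CTSD, the lysosomal protease cathepsin D, had values of 12.21, 12.04 and 12.08. CALR, a calcium-binding chaperone of the endoplasmic reticulum, stood at 11.999 ± 0.022, and KPNB1, the importin that carries proteins into the nucleus, at 11.92 ± 0.039. PTBP1 and YBX1, which bind RNA, stood at 12.002 and 11.91. OAZ1 and SRM act on polyamines, as the inhibitor of ornithine decarboxylase and as spermidine synthase, and stood at 11.97 and 11.79. STC1, a secreted glycoprotein hormone, was at 11.84, PEA15, an adaptor of kinase signalling, at 11.74, the kinase HIPK2 at 11.93 and MSN, which ties actin to the membrane, at 11.70. The remaining non-coding entries were ANXA2P2, a pseudogene of annexin A2, at 12.20, and the small RNAs SNAR-B1 at 12.16 and SNAR-C1 at 11.93. SNAR-C1 also had dimmer probe sets at 9.29. COX6A1, a subunit of cytochrome c oxidase, stood at 11.77 by its brighter probe set, while its other probe set was at 2.69.

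The order within these 30 genes was not resolved. In 24 of the 29 neighbouring pairs the means were closer than the larger of the SDs of the pair, so those neighbours do not differ beyond their spread. For the other pairs the SDs cannot decide the order, since they do not hold the difference between probe sets. Probe sets of 1 gene had a median gap of 1.06. The SDs of the 30 ranged from 0.0025 for the brightest probe set of RPL41 to 0.13 for that of SNAR-C1. On single arrays the membership was stable, since 28 genes were among the top 30 of each array and 32 among the top 30 of any. Ribosomal proteins, pseudogenes and the small snaR RNAs have near-identical copies elsewhere in the genome, so their levels are uncertain. The named genes are also not the whole top of the array. Of the 100 brightest probe sets 97 are unnamed here, meaning that they do not carry a single gene symbol. Above TFPI2 lay 45 unnamed probe sets, the brightest of them at 13.61. The word brightest above therefore refers to named genes.

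**Figure D1:**
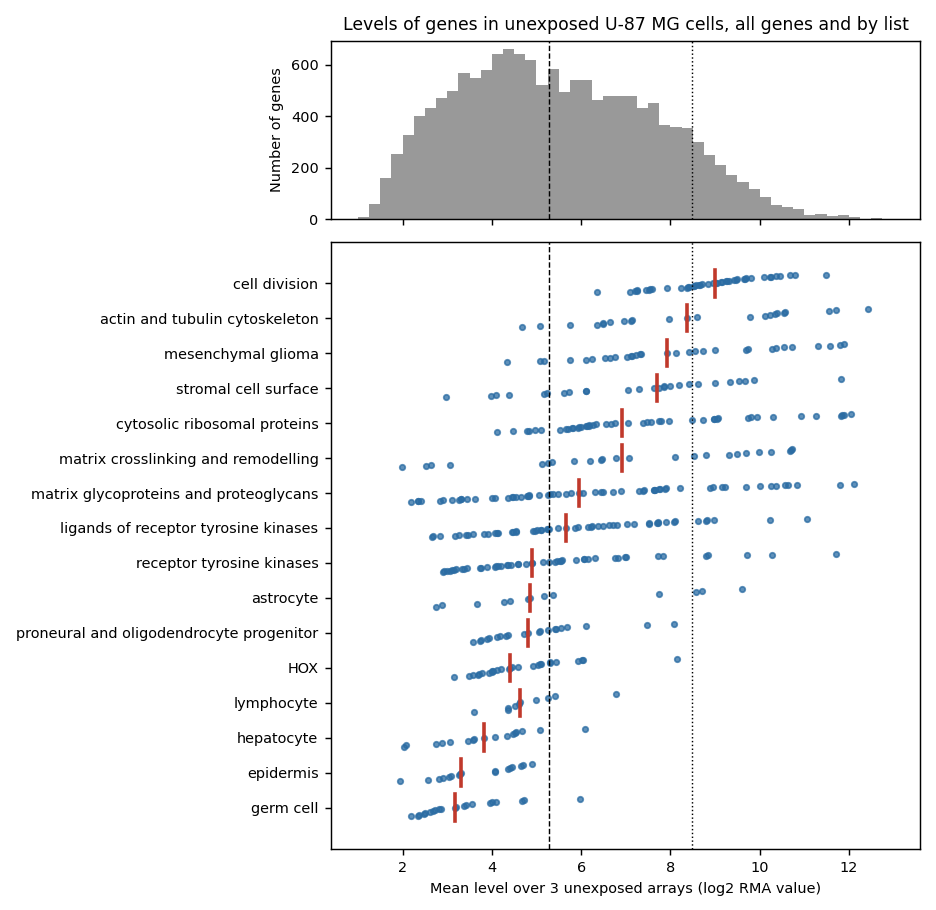
The upper panel is a histogram of the mean log2 level of all 14884 genes, and the lower panel shows each measured member of 16 gene lists as a point at its mean over the 3 unexposed arrays, with a red bar at the list's median. The dashed line is the median of all genes (5.27) and the dotted line the start of the top 10% (8.49). All 44 cell division genes lie right of the dashed line, while epidermis has no member there.

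Genes of the mesenchymal state of glioma were high as a list. Of 31 measured members (52 entries), 28 lay above the median of all genes and 13 in the top 10%, and the list's median stood at the 84.5th percentile of all genes. FOSL1, an AP-1 subunit and transcription factor of the mesenchymal state, had values of 11.99, 11.81 and 11.84. ANXA1, a phospholipid-binding annexin, had values of 11.55, 11.57 and 11.63. EMP3, a membrane glycoprotein, stood at 11.30 ± 0.033 and TIMP1, an inhibitor of matrix metalloproteinases, at 10.72 ± 0.055. All 4 genes sit among the brightest 1% of genes. The other end of the list was S100A4 at 4.33 ± 0.099, TAGLN, an actin-binding protein of smooth muscle, at 5.07 ± 0.18 and the transcription factor RUNX1 at 5.16 ± 0.096. Those 3 were the only measured members at or below the median of all genes. CHI3L1 and CD44, often used to mark this state in tumours, were named after their values were seen. CHI3L1, a secreted chitinase-like glycoprotein, had values of 8.86, 8.69 and 8.67. CD44, a receptor for hyaluronan, had values of 8.93, 9.02 and 9.01. Both lay in the top 10% of genes and well below FOSL1.

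The regulators of the shift between epithelial and mesenchymal states did not share a level. SNAI2, a zinc-finger repressor of epithelial genes, had values of 11.56, 11.41 and 11.61 and ranked 38 among all genes. Its relative SNAI1 stood at 6.23 ± 0.12 and SNAI3 at 5.23 ± 0.36. PRRX1, a homeobox factor of mesenchyme, stood at 9.01 ± 0.17, and its relative PRRX2 at 5.25 ± 0.070. ZEB1 and ZEB2, further repressors of epithelial genes, lay a little above the median at 6.09 and 5.85. TCF4, a helix-loop-helix factor, stood higher at 8.30. TWIST1 and TWIST2 were dim, at 3.50 and 3.13. SNAI2 was thus the brightest member of its list, well above PRRX1 on every array.

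The epithelial genes of the same list were mostly dim. EPCAM, an epithelial adhesion molecule, had values of 4.36, 4.12 and 4.63. ESRP1 and ESRP2, the splicing factors of epithelial cells, were at 2.23 and 4.44, and GRHL2, an epithelial transcription factor, was at 3.52. The tight-junction genes OCLN and CLDN4 stood at 3.57 and 4.57, whereas CLDN7 at 5.44 and CLDN3 at 6.17 lay above the median of all genes. Among the keratins, KRT18 stood at 7.26 ± 0.13, with a dimmer probe set at 5.56, KRT8 at 5.65 ± 0.080 and KRT19 at 4.46 ± 0.047. The homeobox gene GSC was at 4.60. In all, 10 of the 22 measured entries of this mixed list lay above the median and 2 in the top 10%.

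**Figure D2:**
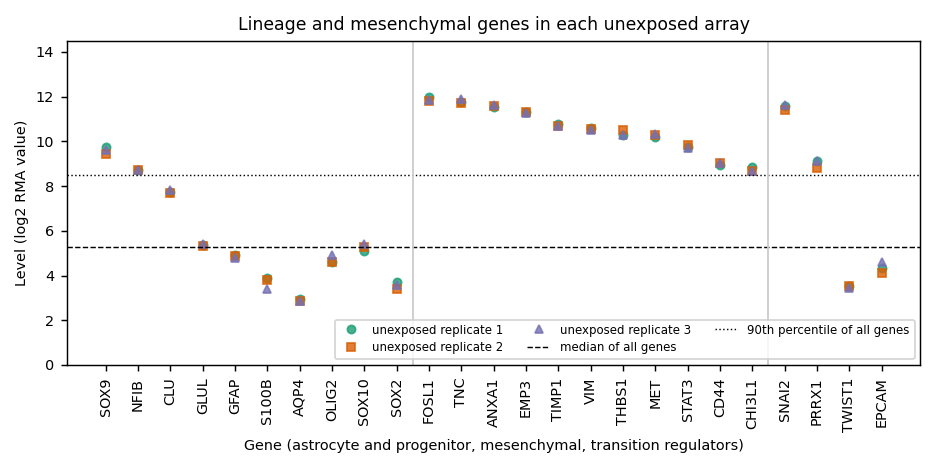
Log2 levels (y axis) of 10 astrocyte and progenitor genes, 11 mesenchymal genes and 4 transition regulators or epithelial genes (x axis), with 1 symbol per unexposed replicate, the dashed line at the median of all genes (5.27) and the dotted line at the start of the top 10% (8.49). The symbols of the 3 replicates nearly coincide for most genes. The 11 mesenchymal genes drawn are picked ones that all lie above the dotted line, whereas 13 of the 31 measured list members do, and GFAP, S100B, AQP4, OLIG2 and SOX2 lie below the dashed line.

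Of the astrocyte list 13 of 24 entries were measured, 5 above the median of all genes and 3 in the top 10%. The high members were SOX9, a transcription factor of glial fate, at 9.61 ± 0.16, NFIB, a nuclear factor of glial differentiation, at 8.71 ± 0.012, and CST3, the secreted protease inhibitor cystatin C, at 8.58 ± 0.085. CLU, the secreted chaperone clusterin, followed at 7.75 ± 0.060. GLUL, the glutamine synthetase of astrocytes, stood at 5.37 ± 0.036, close to the median. NFIA, a partner of NFIB, was at 5.16 and the neural patterning factor PAX6 at 4.81. APOE, the main apolipoprotein of astrocytes, stood at 4.41, NDRG2 at 4.26 and SPARCL1, a secreted synaptogenic protein of astrocytes, at 2.75. NFIA and NFIB, which act together in glial development, were therefore far apart in signal on every array.

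Fewer progenitor and stem cell genes than the 50% of all genes lay above the median. In the proneural and oligodendrocyte progenitor list 7 of 21 measured members lay above the median and 0 in the top 10%. Its brightest members were the helix-loop-helix factor TCF12 at 8.07 ± 0.12 and the proteoglycan CSPG4, known as NG2, at 7.47 ± 0.072. NCAM1, a neural adhesion molecule, stood at 6.11, the chromatin remodeller CHD7 at 5.68 and HES6 at 5.55. SOX2, a factor of neural stem cells, had values of 3.73, 3.41 and 3.59 and was the dimmest of the list, next to ERBB3 at 3.74 and the Notch ligand DLL1 at 3.76. OLIG2, a factor of oligodendrocyte lineage named after its values were seen, had values of 4.61, 4.61 and 4.93. Both transcription factors lay below the median on all 3 arrays. In the neural stem cell list 5 of 18 measured members lay above the median and 1, MYC, in the top 10%. They were MYC at 8.51 ± 0.21, the RNA-binding protein MSI2 at 7.50, the receptor NOTCH1 at 7.45, the filament protein nestin (NES) at 6.87 and KLF4 at 6.34. The pluripotency genes LIN28A, POU5F1 and NANOG were the lowest, at 2.998, 2.77 and 1.67.

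Transcription factors of body and brain position gave a mixed picture. Of the HOX genes, which pattern the trunk and hindbrain, 7 of 27 measured members lay above the median and 0 in the top 10%. HOXB2 stood apart at 8.15 ± 0.15, and the next were HOXC8 at 6.04, HOXB3 at 6.02, HOXD8 at 5.94 and HOXC12 at 5.43. The lowest were HOXB8, HOXD3 and HOXB5, at 3.58, 3.49 and 3.16. HOXB8 was also the least repeatable of the list, with values of 4.13, 2.95 and 3.66. The list entered as homeobox and region factors of the brain also held factors of other organs. Of its 48 measured members 19 lay above the median and 5 in the top 10%. These 5 were FOXF1 at 9.55 ± 0.073, DLX2 at 9.22 ± 0.017, TBX3 at 8.95 ± 0.034, FOXD1 at 8.72 ± 0.17 (its dimmer probe set at 5.74) and IRX3 at 8.56 ± 0.11. FOXF1 is known as a factor of gut and lung mesenchyme, DLX2 as a factor of forebrain interneurons and TBX3 as a factor of limb and heart. The lowest of that list were TBX5, EN1 and EMX2, at 3.24, 3.03 and 2.92.

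Receptor tyrosine kinases pass signals from growth factors into the cell and are often altered in glioma. Of 48 measured members 22 lay above the median and 5 in the top 10%, close to the share of all genes in the top 10%. AXL, the receptor for the vitamin K-dependent ligand GAS6, had values of 11.79, 11.66 and 11.69 and ranked 29th of all genes. MET, the receptor for hepatocyte growth factor, had values of 10.19, 10.28 and 10.33. EGFR, the receptor for epidermal growth factor, had values of 9.70, 9.76 and 9.70. The order AXL, MET, EGFR was the same on each array, and the gaps were larger than the SDs. An SD over arrays does not hold the difference between probe sets. Probe sets of 1 gene had a median gap of 1.06, so this is an order of signal only. DDR2, a collagen receptor, and EPHA2, an ephrin receptor, followed at 8.84 ± 0.045 and 8.80 ± 0.14 and do not differ beyond their spread. The dimmest were EPHA6, FLT3 and ERBB4 at 2.998, 2.93 and 2.91.

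Of the ligands of these receptors 29 of 53 measured members lay above the median and 6 in the top 10%. EREG, which encodes epiregulin, a ligand of EGFR, had values of 11.03, 11.05 and 11.10. FGF2, basic fibroblast growth factor, had values of 10.31, 10.12 and 10.26. These genes were well above the third, the ephrin EFNB2 at 8.98 ± 0.010. The lymphatic growth factor VEGFC stood at 8.81 and the ephrin EFNA5 at 8.79, while EPGN, NRG4 and FGF9 were the lowest at 2.83, 2.68 and 2.65. A receptor and its ligand were thus both bright for EGFR and EREG.

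Other receptor families were represented in part. Of 62 cytokine and TGF-beta family receptors entered 20 were measured, 12 of them above the median. The highest were ENG (endoglin) at 9.87 ± 0.081, the oncostatin M receptor OSMR at 9.03 ± 0.039 and IL17RA at 8.53 ± 0.019, followed by LIFR at 7.73 and IL7R at 7.67. CSF3R, GHR and IL1RL1 were the lowest at 3.58, 3.46 and 3.401. Of the G protein-coupled receptors for lipids, peptides and nucleotides 19 of 56 lay above the median, led by the adenosine receptor ADORA2B at 9.47 ± 0.087. The thrombin receptor F2R at 8.83 ± 0.20 and its relative F2RL2 at 8.82 ± 0.12 did not differ beyond their spread. FZD8 and FZD6, receptors for Wnt proteins, stood at 8.33 and 8.29, and CXCR2, CNR1 and LPAR6 were the lowest at 2.76, 2.57 and 2.27. Of 80 neurotransmitter receptors entered 8 were measured, and 2 lay above the median, the histamine receptor HRH1 at 5.75 and the dopamine receptor DRD4 at 5.34. Without replicate 1 or without replicate 2 only 1 of the 8 did. Of 36 collagen genes and 26 integrin subunits entered 0 matched a probe set with a single gene symbol, so these families were not analysed here.

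Secreted cytokines and chemokines spanned almost the whole scale. Of 34 measured members 16 lay above the median and 4 in the top 10%. GREM1, an antagonist of bone morphogenetic proteins, had values of 11.36, 11.55 and 11.42. SPP1, which encodes osteopontin, had values of 10.73, 10.54 and 10.62. CSF3, granulocyte colony-stimulating factor, had values of 9.42, 9.05 and 9.37. The chemokine CCL2 at 8.89 ± 0.20 and LIF at 8.46 ± 0.24 came next. Replicate 2 was the lowest array for SPP1, CSF3, CCL2 and LIF and the highest for GREM1. CCL20, CCL7 and CXCL10 were dim at 2.55, 2.40 and 2.32. CSF3R, the receptor for CSF3, was among the dim receptors given above.

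Matrix genes spanned as wide a range. Of 61 measured glycoproteins and proteoglycans 36 lay above the median and 13 in the top 10%. Below FN1 and TNC came SDC4, a heparan sulphate proteoglycan of the cell surface, at 10.83 ± 0.059, the TGF-beta-binding protein LTBP1 at 10.63 ± 0.042 and the microfibril protein FBN1 at 10.56 ± 0.13. The lowest were DCN (decorin) at 2.35 ± 0.062, OGN at 2.35 ± 0.12 and HAPLN1, which links hyaluronan to proteoglycans, at 2.20 ± 0.13. Of 24 enzymes and inhibitors of matrix crosslinking and remodelling 18 lay above the median and 10 in the top 10%. Inhibitors and crosslinkers led: TIMP1 and TIMP3, inhibitors of metalloproteinases, stood at 10.72 and 10.69, and the lysyl oxidases LOXL2, LOX and LOXL1 at 10.69, 10.25 and 9.98. TIMP1, LOXL2 and TIMP3 do not differ beyond their spread, although TIMP3 had a dimmer probe set at 5.85. The lowest members were metalloproteinases, MMP12 at 2.64, MMP10 at 2.52 and MMP13 at 1.99. Neither kind was uniform. The metalloproteinase MMP14 stood at 9.32, in the top 10%, and MMP24 at 7.07, with a dimmer probe set at 4.96. The lysyl oxidase LOXL4 stood at 5.13, below the median.

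On the cell surface 20 of 26 measured stromal surface genes lay above the median and 7 in the top 10%. BSG (basigin, CD147) had values of 11.89, 11.83 and 11.78. Below it came ENG, the receptor LRP1 at 9.68 ± 0.095, CD109 at 9.54 ± 0.091, with a dimmer probe set at 5.02, and CD47, known as a signal against phagocytosis, at 9.33 ± 0.12. The adhesion molecule L1CAM at 4.10, CD34 at 3.98 and CD14 at 2.97 were the lowest. The cytoskeleton list had 21 of 23 measured members above the median and 11 in the top 10%. Apart from TMSB10 and MSN its brightest members were PFN1 (profilin) at 11.55 ± 0.015, TPM4 (a tropomyosin) at 10.56 ± 0.12 and VIM. CFL1, the abundant actin-severing protein cofilin, was listed at 4.68 ± 0.053, below the median of all genes.

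Genes altered in glioma could be read in part. CCND1, the cyclin of early G1, had values of 10.41, 10.50 and 10.45. CDK4, its kinase partner, had values of 10.33, 10.19 and 10.24. CDKN2A, which encodes the inhibitor p16 and ARF, had values of 3.42, 3.64 and 3.32 and lay at the 20.8th percentile. MTAP, the neighbour of CDKN2A, had values of 3.995, 3.86 and 3.64. The cyclin and its kinase lay at the 98.9th and 98.6th percentiles, and the inhibitor and its neighbour were dim on all 3 arrays. As background, U-87 MG is known to lack the CDKN2A region, but copy number was not measured here. MGMT, a DNA repair enzyme that reverses alkylation, was at 4.61 ± 0.068, and TERT, the catalytic subunit of telomerase, at 5.34 ± 0.0065, near the median. RB1 stood at 8.69, NF1 at 8.31, CIC at 8.36, ATRX at 7.80, DAXX at 6.14 and the cohesin subunit STAG2 at 7.97. CDK6 stood at 7.21, MDM4 at 6.71, FUBP1 at 7.62 and SETD2 at 7.33. Cyclins D3 and D2 were dimmer than CCND1, with CCND3 at 5.36 and CCND2 at 4.39. In all 14 of 18 measured genes of this list lay above the median and 3 in the top 10%.

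The genes of cell division had the highest median of all lists with measured members. All 44 measured members of 48 entries lay above the median of all genes, 30 of them in the top 10%, and the list's median stood at the 93.6th percentile. PLK1, a kinase of mitosis, had values of 11.52, 11.50 and 11.45. MKI67, whose product Ki-67 is a proliferation marker, had values of 10.63, 10.97 and 10.79. TOP2A, the topoisomerase that untangles replicated DNA, had values of 10.57, 10.78 and 10.67. MKI67 and TOP2A were highest in replicate 2 and lowest in replicate 1, and PLK1 was not. KIF23, a kinesin of cytokinesis, stood at 10.37. The dimmest were CDK6 at 7.21, CCNE2 at 7.10 and STMN1 at 6.35.

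The small differences between replicates in this list ran mostly one way. The mean of the 44 genes was 8.82 in replicate 1, 9.01 in replicate 2 and 8.88 in replicate 3, a spread of under 0.2. Replicate 2 was the highest array in 37 of 44 members, against 38.4% of all genes, and replicate 1 the lowest in 34, against 37.2% of all genes. Of the cytosolic ribosomal genes, replicate 2 was the highest in 27 of 46 and replicate 1 the lowest in 27. These members are not independent of each other, since genes of division move together. No test was made, and whether cell number, time of harvest or hybridisation differed was not tested.

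**Figure D3:**
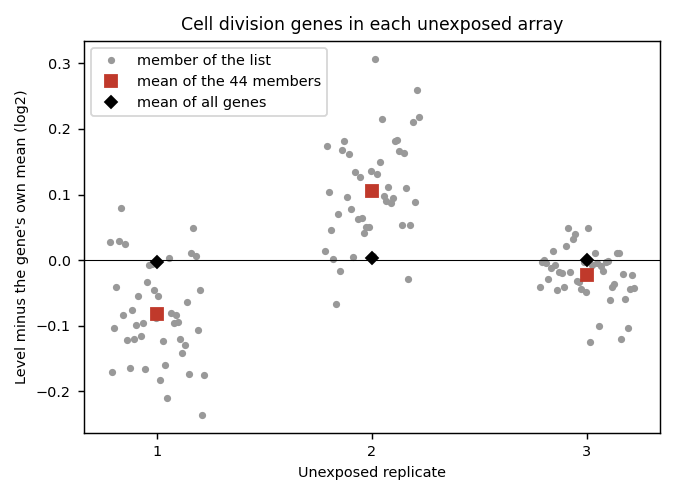
Each grey point is 1 of 44 cell division genes, drawn at its log2 level minus its own mean over the 3 unexposed arrays (y axis) for each replicate (x axis). Red squares are the mean of the 44 genes and black diamonds the mean of all 14884 genes. The red square sits at -0.083 in replicate 1, 0.11 in replicate 2 and -0.022 in replicate 3, while the diamonds stay near 0.

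Genes of basic metabolism were bright, but few of them had a probe set that named them alone. All 9 measured glycolysis genes of 26 entries lay above the median, led by GPI, glucose-6-phosphate isomerase, at 11.26 ± 0.072, HK1 at 9.53 and PGAM1 at 8.95. GAPDH was listed at 7.25 ± 0.0059, LDHA at 7.05 ± 0.086 and TPI1 at 5.72 ± 0.17, all in the lower part of that list. Of 15 measured genes of oxidative phosphorylation 13 lay above the median, with COX8A at 10.57 and COX4I1 at 10.29 below COX6A1, and UQCRB the lowest at 4.69. Of 13 translation factors 12 lay above the median, and of 46 cytosolic ribosomal genes 40 did. EEF1G at 10.79 and EIF4H at 10.08 followed EEF2, while RPL31, RPS7 and RPL22 were the lowest ribosomal genes at 4.78, 4.48 and 4.12. GAPDH, CFL1 and ribosomal genes are held to be abundant in all cells, and they have many processed copies in the genome, so their levels here are uncertain. Of 36 proteasome subunits entered 0 matched a probe set with a single gene symbol, and they were not analysed here.

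Most measured genes of the hypoxia and redox lists lay above the median of all genes. Whether the cells were answering low oxygen or stress was not tested. Of 18 measured hypoxia genes 16 lay above the median and 7 in the top 10%. EPAS1, the oxygen-regulated factor HIF-2 alpha, had values of 10.48, 10.46 and 10.50. BNIP3L and BNIP3, which mark mitochondria for removal, stood at 10.41 ± 0.13 and 10.03 ± 0.091, LOX at 10.25 ± 0.18 and NRN1 (neuritin) at 9.93 ± 0.030. EGLN3, a prolyl hydroxylase that HIF induces, was the lowest at 4.32 ± 0.065, below ANKRD37 at 4.99. In the redox list 21 of 28 lay above the median. Thioredoxin (TXN) at 11.25 ± 0.096, the peroxiredoxins PRDX1 at 11.17 ± 0.053 and PRDX3 at 10.32 ± 0.050, and the metallothioneins MT1X at 10.79 ± 0.097 and MT2A at 10.45 ± 0.056 were the brightest. MT1H, another metallothionein, was at 2.33 ± 0.33.

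Markers of other tissues were dim, with few exceptions. Over 12 lists (hepatocyte, striated muscle, erythroid, pancreas, epidermis, intestine, kidney, lung, germ cell, retina and lens, lymphocyte, and microglia and myeloid) 132 of 242 entries were measured. Of these 13 lay above the median of all genes, or 9.85%, and 1 in the top 10%. Their median level was 3.98, and their 5th and 95th percentiles were 2.35 and 5.98. In the epidermis list 0 of 17 members lay above the median, the highest being FLG (filaggrin) at 4.90, and in the germ cell list 1 of 21 did, PRM2 (a protamine) at 5.96. ALB, the serum albumin gene of liver, had values of 2.68, 2.87 and 2.71. FGA and FGG, the fibrinogen genes, stood at 2.08 and 2.02. These values are near those of the dimmest genes. Of 14 measured cancer-testis antigens 0 lay above the median, the highest being CTAG1A at 4.97.

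The exceptions can be named. CD68 was the only tissue marker in the top 10%. Of the other myeloid genes CSF1R lay just above the median at 5.57, while SPI1 at 5.15, TYROBP at 4.52, CD14 at 2.97 and CD163 at 2.40 lay below it. PODXL, a sialomucin of kidney podocytes, stood at 7.11 ± 0.097, CD22, a B-cell lectin, at 6.78 ± 0.14, and DES (desmin), a muscle filament, at 6.49 ± 0.37, with a dimmer probe set at 4.36. APOH at 6.09, GATA1 at 6.09, CTRC at 6.01, TFF3 at 5.41, FOXJ1 at 5.65, ROM1 at 5.57 and CD8A at 5.42 lay between 5.41 and 6.09. Leaving out 1 array changed 2 of these list counts by a large factor, to 0 from 1 for intestine without replicate 1 and to 2 from 1 for kidney without replicate 3. Smaller changes were not counted. DES was less repeatable than most genes at its level, with values of 6.92, 6.25 and 6.30.

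Markers of brain and vessel cells were examined in the same way. Of 8 oligodendrocyte markers 1 lay above the median: UGT8, the galactosyltransferase of myelin lipids, had values of 9.17, 9.31 and 9.10 and was in the top 10%. The myelin genes MBP at 4.53, MAG at 4.10 and MOBP at 3.46 were dim. Of 12 endothelial markers 2 lay above the median, KDR, the receptor VEGFR2, at 6.98 ± 0.17, and CLDN5 at 5.48 ± 0.31, while PECAM1 stood at 3.07. Of 8 neuronal markers 4 lay above the median, the highest being GAP43 at 6.23 ± 0.16, and 0 were in the top 10%. Of 11 pericyte and fibroblast markers 6 lay above the median, among them CSPG4, NOTCH3 at 6.81 and LUM at 6.45. Of 10 melanocyte and Schwann cell markers 1 did, GPNMB, a transmembrane glycoprotein, at 7.88 ± 0.047, with SOX10 at 5.26 and MITF at 4.51. Without replicate 1, and with the mean of all probe sets, 2 of the 10 lay above the median.

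Level also differed by kind of gene. The 11915 protein-coding genes had a median of 5.82, and 1453 of them made up nearly all of the top 10%. The 1398 long non-coding RNAs had a median of 3.72, the 447 transcribed pseudogenes 3.99, and the 1072 microRNA genes 3.003. Of the microRNA genes 172 lay above the median of all genes and 1 in the top 10%, MIR4737 at 10.04 ± 0.058. A probe set named for a microRNA gene does not tell the mature molecule from its precursor or from the host transcript.

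For the microRNAs followed below, the mature sequences are given 5′ to 3′ from RefSeq (GRCh38.p14), with the seed, bases 2 to 8, in capitals. miR-21 lies on the plus strand at chr17:59841273-59841294, miR-221-3p on the minus strand at chrX:45746180-45746202 and miR-222-3p on the minus strand at chrX:45747036-45747056. miR-3189-3p lies on the plus strand at chr19:18386607-18386627, within the gene GDF15. They are shown because miR-21, miR-221 and miR-222 are known as abundant in glioma, and because MIR3189 had the largest spread of all genes.
hsa-miR-21-5p: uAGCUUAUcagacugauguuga
hsa-miR-221-3p: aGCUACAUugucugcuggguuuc
hsa-miR-222-3p: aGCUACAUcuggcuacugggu
hsa-miR-3189-3p: cCCUUGGGucugaugggguag

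miR-221-3p and miR-222-3p share a seed, and no other of the 979 measured microRNA genes with a known mature sequence here carries it, while 93 had none matched. MIR221 had values of 7.74, 7.27 and 7.50. MIR222 had values of 5.55, 5.38 and 5.44. The paralogues lie side by side on the X chromosome, and MIR221 was the brighter on each array. MIR21 had values of 6.89, 6.86 and 7.10. All 3 lay above the median of all genes and below the top 10%, whereas the median microRNA gene stood at 3.003. These microRNAs were chosen for their known role, not by their rank.

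The share of genes with a CpG-rich promoter rose with level. Promoters were read as 300 bases, from 250 before to 50 after the first listed start, for the 10749 genes with an entry, and 4135 genes had none. A promoter was counted as CpG-rich where its ratio of observed to expected CpG was above 0.6 and its GC content above 50%. That held for 28.6% of 714 genes in the dimmest of 10 equal classes of level and for 87.3% of 1272 genes in the brightest, for 65.8% of all 10749 measured genes with an entry, and for 46.8% of all 27305 promoters of the reference. The hexamer TATAAA, searched on both strands, went the other way, from 22.3% in the dimmest class to 4.87% in the brightest, against 8.49% of measured genes and 11.95% of all promoters. The AP-1 site TGANTCA, which reads the same on both strands, was found in 9.66% of the dimmest and 4.64% of the brightest class, against 7.76% of all. Each motif was searched on its own, whether or not it overlapped another. A match is a description of the letters in this window. Across genes, level and CpG ratio had a Spearman correlation of 0.44, and of 0.42 among protein-coding genes. Genes are not independent replicates, and the dim classes also hold more non-coding genes.

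Neither end was uniform. In the top 10% 161 of 1272 promoters were not CpG-rich, CD68 among them, and in the 5 dimmer classes 2150 of 4777 were CpG-rich, SOX2 among them. Against 65.8% of measured genes, cell division genes were CpG-rich in 34 of 35, secreted cytokines in 9 of 24 and the markers of the 12 other tissues in 13 of 95. Of the 27 mesenchymal glioma promoters 17 (63.0%) were CpG-rich, near the share of all measured genes. The 63.0% lay below the 85.9% of genes that were CpG-rich in the class of level holding the list's median. TATAAA was found in 7 (25.9%) of the 27, against 8.49% of measured genes. That excess was not particular to this list. Secreted cytokines held TATAAA in 7 of 24 and the markers of the 12 other tissues in 16 of 95, against 1 of 35 cell division genes.

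**Figure D4:**
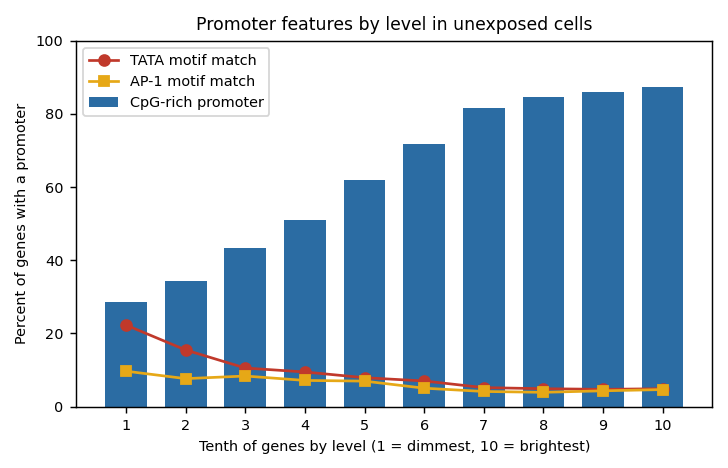
Share of genes (y axis, percent) by class of level (x axis, 10 equal classes from dimmest to brightest) whose 300-base promoter is CpG-rich (bars), holds a TATA motif (circles) or holds an AP-1 motif (squares). Bars rise from 28.6% to 87.3%, and the TATA share falls from 22.3% to 4.87%.

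Replicates were close for most genes, and most of the spread lay in dim genes. The gene levels of any 2 arrays correlated at 0.992 to 0.994 across genes. The SD over the 3 arrays had a median of 0.12 over all genes, 0.091 above the median level and 0.16 below it. From the dimmest to the brightest of the 10 classes of level the median SD fell from 0.18 to 0.065. The largest SD was that of MIR3189, with values of 4.20, 3.33 and 5.57. Its host gene GDF15, a stress-induced cytokine, had values of 8.47, 8.01 and 8.31. The lowest array was replicate 2 for both, but the highest was replicate 3 for MIR3189 and replicate 1 for GDF15. The planned dim reference was the olfactory receptor genes, of which only OR4C45 was measured, at 2.28. Of the 20 most variable genes above that level 11 were microRNA genes, against 7.2% of all genes. MicroRNA genes were mostly dim, and their median SD was 0.21. Of the same 20 genes 1 was also among the 20 most variable above the median of all genes.

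Above the median 7 genes had an SD over 0.5 and 6 a range over 1. The genes named here were chosen for their SD after the values were seen. RANBP3L, a relative of a nuclear export factor, had values of 7.15, 5.28 and 7.003. EGR1, an immediate-early transcription factor that serum and stress induce, had values of 10.84, 9.86 and 11.01. DDIT4, a stress-induced inhibitor of mTOR signalling, had values of 7.22, 6.27 and 6.77. In all 3 genes replicate 2 was the lowest array. The dimmer probe set of EGR1 was lowest in replicate 2 too, at 5.96, 5.07 and 6.04. RPL23AP7, a ribosomal pseudogene, had values of 5.04, 6.26 and 6.12, and LIMS1, an adaptor at cell adhesions, 4.94, 5.82 and 5.91, with replicate 1 the lowest in both. ZNF792 was lowest in replicate 3, at 6.81, 7.11 and 6.16. Replicate 2 was the array farthest from the others in 9 of the 20 most variable genes above the median, lower in 7 and higher in 2. Over all 7442 genes above the median it was the farthest array below the others in 17.4% and above them in 24.5%. Without replicate 2, 6 of these 20 genes were still among the 20 most variable, against 7 without replicate 1 and 12 without replicate 3.

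EGR1 also had the largest SD in the top 10%, followed by PAQR5. PAQR5, a membrane progesterone receptor, had values of 10.07, 9.36 and 9.97. IER3, an immediate-early gene, had values of 10.32, 9.82 and 10.15. MYC had values of 8.61, 8.26 and 8.65. ARRDC3, an arrestin-like adaptor, stood at 9.65, 9.31 and 9.80. Each of these was lowest in replicate 2. CEMIP, a hyaluronan-degrading protein, was also lowest there, at 9.30, 8.84 and 9.31. TIMP4, a metalloproteinase inhibitor, had values of 8.72, 8.25 and 8.63. MYBL2 and MCM6, which act in the cell cycle and DNA replication, went the other way. MYBL2 had values of 8.66, 9.15 and 8.72, and MCM6 had values of 8.42, 8.85 and 8.63. MALAT1, a nuclear long non-coding RNA, was highest in replicate 3, at 10.47, 10.47 and 10.91. Replicate 1 was the lowest array for RPL21P28, a ribosomal pseudogene with the third-largest SD, at 8.33, 9.04 and 8.76. Of the 20 most variable genes of the top 10%, the array farthest from the others was replicate 2 below them in 9 and above them in 3, replicate 1 below them in 7 and replicate 3 above them in 1. Over all genes above the median, a wider set, these shares were 17.4%, 24.5%, 21.9% and 11.7%. The shares over all genes of the top 10% were not computed. Whether the differences between replicates come from the cultures or from the handling of the samples was not tested.

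**Figure D5:**
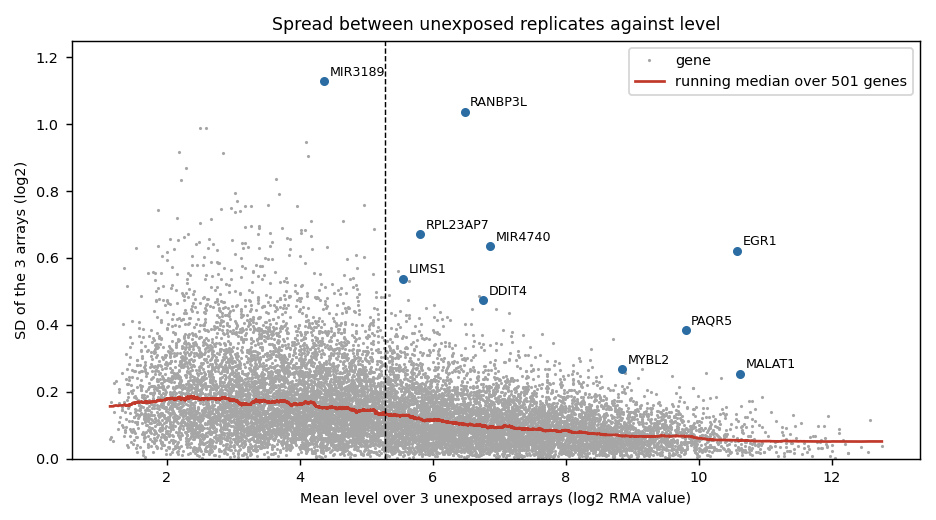
SD of the 3 unexposed arrays (y axis, log2) against mean level (x axis, log2) for each of 14884 genes (grey), with the running median of genes of like level in red and the median level as a dashed line. The red line falls from left to right, and the labelled genes MIR3189, RANBP3L and EGR1 stand far above it.

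The EGR1 promoter is shown because EGR1 was the most variable gene of the top 10%. The stretch is the 250 bases before its start on the plus strand at chr5:138465229-138465478 (RefSeq, GRCh38.p14), with 2 matches to the CArG box, the motif that serum response factor is known to bind, in capitals. The CArG box, which was searched without regard to overlap and reads the same way on both strands, was found in 1.29% of all promoters and in 1.49% of those of the top 10%.
EGR1: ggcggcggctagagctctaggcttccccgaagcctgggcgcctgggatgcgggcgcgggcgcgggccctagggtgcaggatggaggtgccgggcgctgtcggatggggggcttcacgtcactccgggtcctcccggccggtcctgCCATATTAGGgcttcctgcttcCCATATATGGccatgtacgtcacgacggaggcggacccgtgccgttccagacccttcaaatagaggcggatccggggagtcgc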

How the data were processed

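Total RNA of U-87 MG cells was measured on 1-colour Affymetrix arrays. The deposited values are on the log2 scale, 1 for each probe set on each array. Per the submitters' processing notes the authors made them with RMA, which corrects background, normalizes arrays to each other and combines the probes of a set. The same notes list Transcriptome Analysis Console 3.0 and Affymetrix Expression Console 3.0, and the other settings were not given in the sources used here. RMA makes the distributions of arrays alike, so a difference in total RNA would not be visible.

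Of 53617 probe sets 16098 carry a single gene symbol in the platform annotation, and the other 37519 are called unnamed here. Any probe set annotated with several symbols was left out and is counted among the unnamed. The 16098 probe sets name 14884 genes, 779 of them by several probe sets. The brightest of these on average over the 3 unexposed arrays was used. In 399 of the 779 the probe sets differed by more than 1. Among named probe sets 267 repeat the values of another. Means, SDs, ranks and percentiles were computed in Python 3.11.15 with pandas 2.3.3 and numpy 2.4.6 and drawn with matplotlib 3.10.9. The calculations were tested on simulated data. Names, promoters and mature microRNAs come from RefSeq (GRCh38.p14). Mature sequences matched 979 of 1072 microRNA genes.

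There is 1 group, so no comparison between groups and no test was made. The members and the gene lists were chosen with earlier results of these data known. The text names the 30 brightest genes, the 5 highest and 3 lowest members of a list (or fewer) and all measured members of the astrocyte, glioma genotype and epithelial-mesenchymal lists. It also names tissue markers above a dim reference and the most variable genes. Clone and locus names were passed over, and other genes were named after their values were seen.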

Additional observations from a re-analysis of the deposited data

How the results depend on the processing

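No paired analysis was possible because 1 group was used and no result comes from a test. The planned dim reference, the olfactory receptor genes, rests on 1 gene at 2.28 and separates little: 14041 of all genes, 855 list genes and 126 of the 132 tissue markers lay above it. With the median of all genes in its place these counts were 7442, 446 and 13, and 1 of the 20 most variable genes was shared. With the 95th percentile of the tissue markers (5.98), chosen after seeing the data, they were 5912, 362 and 7, and again 1 of 20 was shared. Of the 20 most variable genes above the planned reference, leaving out 1 replicate kept 8 to 11, and the SD of unlogged values over their mean kept 13. Of the 30 brightest genes 26 to 30 were kept under the alternatives tried (mean of a gene's probe sets, shifted or quantile-normalized arrays, unlogged means, and each replicate left out). The count of list members above the median of all genes changed by a large factor in 6 combinations of list and setting and not in 240. Smaller changes are among the 240. With the mean of all probe sets the mesenchymal glioma count was 27 instead of 28. The count of epithelial-mesenchymal regulators was 12 instead of 10. With the mean of all probe sets RPL41 stood at 9.08, COX6A1 at 7.23 and HMGA1 at 11.25. Replicate 2 was the highest array in 34 to 38 of the 44 cell division genes under the other normalizations. The planned description of protein length was not run. Signal over background is unknown, since the values hold no background measure, so differences among the dimmest genes cannot be read.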

Other observations

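The probe sets without a single gene symbol, called unnamed here, differed from the named ones in level. Their median was 3.50, against 5.19 for the 16098 named probe sets, yet they also held 97 of the 100 brightest, up to 13.61. What those bright probe sets measure was not analysed here.

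Where a gene had several probe sets, these often disagreed. The median gap between the brightest and the dimmest was 1.06 over 779 genes, and the largest was 9.08, for COX6A1. In 45 genes the gap was 0.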
